A study of Mus musculus with 5 samples.

Results

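Rap1 is a small GTPase of the Ras family, and 10 genes that encode its 2 forms and the proteins that switch it on, switch it off or act directly below it were followed in the injured mouse retina. The genes were picked by symbol, as Rap1a and Rap1b, the exchange factors Rapgef1, Rapgef2, Rapgef3, Rapgef4 and Rapgef5, the GTPase-activating proteins Rap1gap and Sipa1, and the effector Rasip1. All 10 were found among the 25655 gene symbols counted. All 10 also passed the filter on low counts, which left 14992 genes for testing.

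The RNA came from wild-type C57BL/6 mice of both sexes, 8 to 10 weeks old, whose left optic nerve had been crushed (optic nerve crush, ONC). The mice received Sorbinil, an inhibitor of aldose reductase, at 10 mg/kg, or its vehicle DMSO, by intraperitoneal injection from the day before ONC and then daily. The whole injured retina was taken 7 days after ONC, and its total RNA was sequenced from 3 mice given DMSO (numbered 1, 2 and 3) and 2 given Sorbinil (numbered 1 and 3). Sorbinil replicate 2, which the authors excluded after a principal component analysis, was not analysed here, nor were retinas without ONC. The whole retina contains neurons, glia, vessels and microglia, and the drug was given to the whole animal, so a count is a sum over all of these cells.

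Rap1 cycles between an inactive form bound to GDP and an active form bound to GTP. Guanine nucleotide exchange factors load it with GTP, and GTPase-activating proteins (GAPs) speed the hydrolysis that turns it off. The exchange factors differ in what drives them. Rapgef1 is recruited through Crk adaptors below tyrosine kinases, Rapgef3 and Rapgef4 (Epac1 and Epac2) are opened by cyclic AMP, Rapgef2 carries a PDZ domain, and Rapgef5 can bind the Ras relative M-Ras. Active Rap1 promotes integrin adhesion of leukocytes and platelets, holds endothelial junctions made of VE-cadherin together, and takes part in neuronal polarity and MAP kinase signalling through B-Raf. The name Rap1 is also used for an unrelated telomere protein, which is not meant here.

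The 5 libraries held between 56096541 and 90288552 counts on genes, so that each member was counted at least 106 times in every retina. Sorbinil replicate 1 stood apart from the other 4 retinas. On the first principal component, which held 65.4% of the variance, it lay at 75.8, while the others lay between -28.9 and -7.64. Its deviation was present in many genes, with 17.4% of all tested genes at least 2-fold below the DMSO mean in that retina and 0.914% in Sorbinil replicate 3. Y-linked genes marked DMSO replicates 1 and 2 and Sorbinil replicate 1 as male and the other 2 retinas as female. Mitochondrially encoded genes took 1.94% to 2.66% of the counts in DMSO and 3.70% to 4.05% in Sorbinil retinas. Fits were therefore repeated without each Sorbinil retina. Levels are given as CPM (counts scaled to TMM-normalized library size), and fold changes are Sorbinil over DMSO from edgeR's quasi-likelihood fit over all tested genes.

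None of the 10 members was called changed by Sorbinil at the threshold of the study, an unadjusted p of at most 0.1 with a change of at least 2-fold, which 1.71% of all tested genes passed. In Sorbinil replicate 1, Rapgef3, Rapgef4, Rap1gap and Rasip1 were at least 2-fold below the DMSO mean, as were 17.4% of all tested genes. In the same retina Rapgef5, Rap1a and Rap1b were 0.71, 0.42 and 0.38 above the DMSO mean on the log2 scale. No member was 2-fold above the DMSO mean there, where 1.76% of all tested genes were. In Sorbinil replicate 3, none of the 10 differed from the DMSO mean by as much as 2-fold in either direction, against 0.914% of all tested genes below and 0.78% above. The groups did not overlap for 3 members, with Rap1a and Rapgef5 higher and Rapgef3 lower in both Sorbinil retinas, a pattern that 23.2% of all tested genes showed in either direction (10.5% lower and 12.8% higher).

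The place of each Sorbinil retina against the DMSO range was counted for the members and for the whole table. In Sorbinil replicate 1, Rapgef3, Rapgef4, Rap1gap, Sipa1 and Rasip1 were below all DMSO retinas, as were 41.7% of all tested genes, and Rap1a, Rap1b, Rapgef1 and Rapgef5 were above them, as were 43.4%. Rapgef2 alone was inside the DMSO range, with 14.9% of all genes. In Sorbinil replicate 3, Rapgef1 and Rapgef3 were below all DMSO retinas (29.1% of all genes), Rap1a, Rapgef2 and Rapgef5 were above them (27.3%), and the other 5 members were inside the range (43.6%). Of the 5 members below the range in Sorbinil replicate 1, Rapgef3 was the 1 that was also below it in Sorbinil replicate 3.

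**Figure D1:**
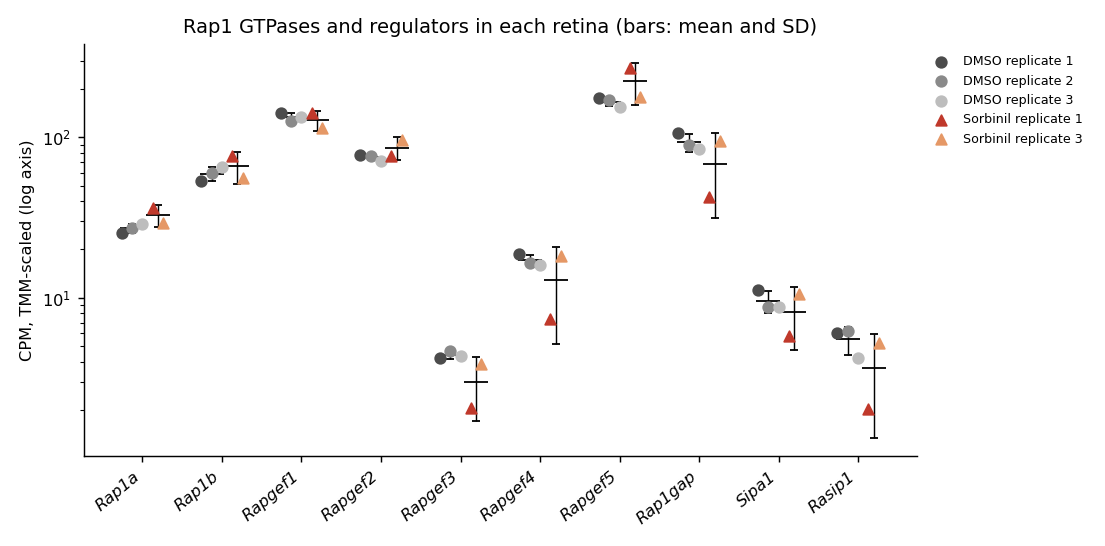
CPM (log axis) of each of the 10 members in each retina, with DMSO retinas as grey circles, Sorbinil retinas as coloured triangles, and the mean and SD of each group as bars. Sorbinil replicate 1 lies lowest for Rapgef3, Rapgef4, Rap1gap, Sipa1 and Rasip1 and highest for Rap1a, Rap1b and Rapgef5. For Rapgef1 it is also highest, by a narrow margin over DMSO replicate 1.

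The GTPases themselves are encoded by Rap1a (ENSMUSG00000068798, chromosome 3, 105634567 to 105708715, minus strand, GRCm39) and Rap1b (ENSMUSG00000052681, chromosome 10, 117648424 to 117681972, minus strand). Their coding sequences are each 555 bases long and match at 453 positions (81.6%), and 79 of the 102 differences (77.5%) fall on the third base of a codon. The longest run shared by both is 20 bases, so a longer read within the coding sequence crosses at least 1 difference. The start of the coding sequence (bases 1 to 120, with 17 differences) and its end (bases 481 to 555, with 25) are shown to let the paralogs be told apart, with capitals at bases that differ and all other bases in lower case.
Rap1a, bases 1 to 120: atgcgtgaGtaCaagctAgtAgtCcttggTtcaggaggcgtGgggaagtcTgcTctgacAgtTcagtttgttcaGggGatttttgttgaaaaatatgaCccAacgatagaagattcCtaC
Rap1b, bases 1 to 120: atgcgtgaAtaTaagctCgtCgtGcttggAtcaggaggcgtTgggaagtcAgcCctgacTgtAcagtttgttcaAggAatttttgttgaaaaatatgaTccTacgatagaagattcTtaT
Rap1a, bases 481 to 555: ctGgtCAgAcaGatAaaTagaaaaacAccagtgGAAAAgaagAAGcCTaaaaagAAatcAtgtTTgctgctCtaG
Rap1b, bases 481 to 555: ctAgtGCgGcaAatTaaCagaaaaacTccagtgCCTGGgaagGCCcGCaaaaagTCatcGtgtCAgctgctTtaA
The end of the coding sequence, which encodes the variable tail before the lipid anchor, holds more differences in fewer bases than the start. Over whole transcripts, 5.16% of the 75-base windows of Rap1a also occur in the transcript of another annotated gene, Gm9392, while no such window of Rap1b is shared.

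Rap1a was at 25.5, 27.1 and 28.9 CPM in DMSO replicates 1, 2 and 3, and at 36.2 and 29.1 CPM in Sorbinil replicates 1 and 3. Both Sorbinil values thus lay above all DMSO values, though Sorbinil replicate 3 exceeded the highest DMSO retina only narrowly. DMSO retinas averaged 27.2 ± 1.73 CPM (SD, n = 3), compared to 32.7 ± 5.07 CPM (SD, n = 2) after Sorbinil. This gave a log2 fold change of 0.27 (95% interval -0.10 to 0.63), with an unadjusted p of 0.121 and an adjusted p of 0.758. Without Sorbinil replicate 1 it was 0.11.

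Rap1b, the main Rap1 form of platelets, was at 53.0, 60.2 and 64.8 CPM in the DMSO retinas and at 76.8 and 55.4 CPM in the Sorbinil retinas. Sorbinil replicate 1 was the highest of the 5, and Sorbinil replicate 3 was within the DMSO range. The fit gave a log2 fold change of 0.16 (95% interval -0.29 to 0.60, adjusted p = 0.786), and it turned to -0.09 when Sorbinil replicate 1 was left out. The intervals leave room for a rise of 1.54-fold in Rap1a and 1.52-fold in Rap1b, and for falls to 0.936 and 0.818 of the DMSO level.

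Among the exchange factors, Rapgef1 (ENSMUSG00000039844, chromosome 2, 29509711 to 29631005, plus strand) was at 140.5, 125.2 and 132.7 CPM in the DMSO retinas. In the Sorbinil retinas it was at 140.6 and 114.8 CPM. Sorbinil replicate 1 thus matched the highest DMSO retina and Sorbinil replicate 3 was the lowest of the 5. Its log2 fold change of -0.06 (95% interval -0.40 to 0.29, adjusted p = 0.893) was the smallest among the 10 members, and the interval excluded a 2-fold change in either direction.

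Rapgef2 (ENSMUSG00000062232, chromosome 3, 78969818 to 79194650, minus strand), an exchange factor with a PDZ domain that acts in neurons, was at 76.9, 76.3 and 71.4 CPM in DMSO and at 76.4 and 95.6 CPM in Sorbinil retinas. It was the 1 member in which Sorbinil replicate 1 lay inside the DMSO range, and Sorbinil replicate 3 lay above it. Its log2 fold change was 0.20 (95% interval -0.14 to 0.54, adjusted p = 0.758). Without Sorbinil replicate 1 it was 0.36, and without Sorbinil replicate 3 it was 0.03.

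Rapgef3 (ENSMUSG00000022469, chromosome 15, 97637887 to 97665853, minus strand), the cyclic AMP sensor Epac1 of vessels and many other tissues, was the least abundant exchange factor. It was at 4.22, 4.64 and 4.34 CPM in DMSO and at 2.07 and 3.89 CPM in Sorbinil retinas. Both Sorbinil retinas lay below all 3 DMSO retinas, by 1.07 and 0.18 from the DMSO mean on the log2 scale. Its fitted log2 fold change was -0.56 (95% interval -1.33 to 0.21), with an unadjusted p of 0.126, and it was -0.17 without Sorbinil replicate 1. Annotated antisense RNAs overlap its exons, the longest of them Gm33531 over 18.9% of the exon bases, and whether the authors counted reads by strand is not stated, so reads from both strands cannot be told apart here.

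Rapgef4 (ENSMUSG00000049044, chromosome 2, 71811328 to 72089838, plus strand), the cyclic AMP sensor Epac2 found mainly in neurons and endocrine cells, was at 18.6, 16.6 and 16.1 CPM in DMSO and at 7.42 and 18.3 CPM in Sorbinil retinas. The lower Sorbinil value was well under the DMSO range and the other was inside it. The fitted log2 fold change of -0.41 (95% interval -1.34 to 0.52, adjusted p = 0.759) changed to 0.11 without Sorbinil replicate 1. In Sorbinil replicate 1 the level was 1.20 below the DMSO mean on the log2 scale.

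Rapgef5 (ENSMUSG00000041992, chromosome 12, 117480099 to 117723473, plus strand), an exchange factor that can bind M-Ras, was the member with the smallest p. It was at 175, 170 and 154 CPM in DMSO and at 271 and 177 CPM in Sorbinil retinas. Both Sorbinil retinas were above all DMSO retinas, but Sorbinil replicate 3 passed DMSO replicate 1 by less than the spread of the DMSO group, whose SD was 10.8 CPM (n = 3). Rapgef5 had a log2 fold change of 0.43 (95% interval -0.07 to 0.93), with an unadjusted p of 0.0801 and an adjusted p of 0.758. Leaving out Sorbinil replicate 1 brought it to 0.10, and leaving out replicate 3 to 0.71. No other member had an unadjusted p of at most 0.1 at any fold, a limit that 11.3% of all tested genes passed (6.98% higher and 4.33% lower).

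The GAP Rap1gap (ENSMUSG00000041351, chromosome 4, 137392037 to 137457177, plus strand), which turns Rap1 off in neurons and other cells, was at 107, 89.2 and 83.9 CPM in DMSO retinas. In the Sorbinil retinas it was at 42.4 and 94.6 CPM. One Sorbinil retina was therefore at less than the lowest DMSO value and the other inside the DMSO range. This came to a log2 fold change of -0.44 (95% interval -1.29 to 0.41, adjusted p = 0.758), which became 0.03 without Sorbinil replicate 1.

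Sipa1 (ENSMUSG00000056917, chromosome 19, 5700692 to 5713738, minus strand), a GAP of leukocytes and other cells, was at 11.3, 8.71 and 8.73 CPM in DMSO and at 5.76 and 10.6 CPM in Sorbinil retinas. Its pattern over the retinas was like that of Rap1gap, with Sorbinil replicate 1 lowest and Sorbinil replicate 3 inside the DMSO range. It had a log2 fold change of -0.22 (95% interval -0.97 to 0.52, adjusted p = 0.807), and 0.16 without Sorbinil replicate 1.

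Rasip1 (ENSMUSG00000044562, chromosome 7, 45276142 to 45288531, plus strand), a Rap1 effector of endothelial cells that is needed for vessel lumens, was at 6.06, 6.24 and 4.25 CPM in DMSO and at 2.02 and 5.26 CPM in Sorbinil retinas. Its fitted change was the furthest below 0 among the members, with a log2 fold change of -0.60 (95% interval -1.69 to 0.49) and an unadjusted p of 0.226. The level in Sorbinil replicate 1 was 1.42 below the DMSO mean on the log2 scale, while Sorbinil replicate 3 was inside the DMSO range. Without Sorbinil replicate 1 the log2 fold change was -0.06. In the annotation, 27.2% of its exon bases are shared with Izumo1, which lies on the same strand and was counted at 0 in all 5 retinas. An antisense RNA, A030001D20Rik, covers 19.4%, and 16.2% of the 75-base windows of the Rasip1 transcript also occur in Izumo1.

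**Figure D2:**
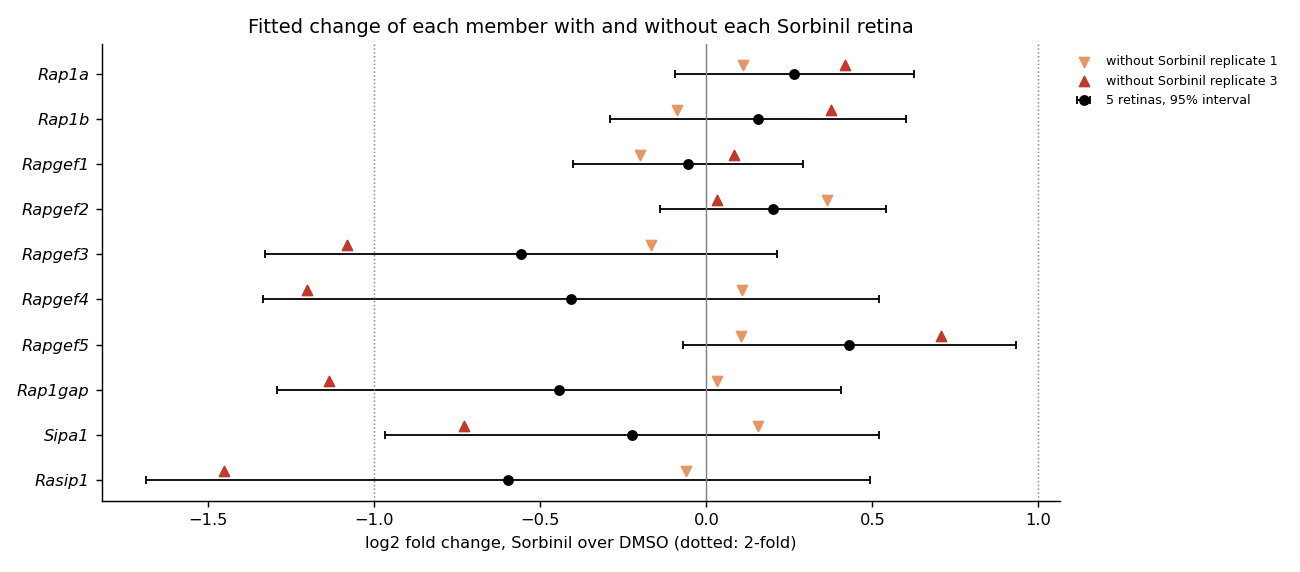
Fitted log2 fold change (Sorbinil over DMSO) of each member with its 95% interval from all 5 retinas (black), and the same fit without Sorbinil replicate 1 or replicate 3 (triangles), with dotted lines at a 2-fold change. All 10 intervals include 0, and only without Sorbinil replicate 3 do Rapgef3, Rapgef4, Rap1gap and Rasip1 pass -1.

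The count of members depended on which Sorbinil retina was in the fit. With Sorbinil replicate 1 as the lone Sorbinil retina, assumed to vary like the DMSO retinas, Rapgef3, Rapgef4, Rap1gap and Rasip1 were called lower, in a fit that called 17.4% of all tested genes lower. Their log2 fold changes in that fit were -1.08, -1.20, -1.14 and -1.45, and that of Sipa1 was -0.73. Rapgef5, Rap1a and Rap1b went the other way, at 0.71, 0.42 and 0.37, and Rapgef1 and Rapgef2 were at 0.08 and 0.03. With Sorbinil replicate 3 as the lone Sorbinil retina, no member was called, and 1.43% of all tested genes were. In the fit with all 5 retinas, edgeR gave 0 members at an adjusted p under 0.05, as it did for all tested genes (0.0%). It gave 0 at an unadjusted p under 0.05, against 5.01% of all genes (3.23% higher and 1.78% lower), and the DESeq2 Wald test called 0 members at the threshold of the study. An exact permutation test over the 10 groupings of the retinas gave p = 0.1, the smallest it allows, for Rap1a, Rapgef3 and Rapgef5 and between 0.2 and 0.7 for the other members.

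The promoters of Rapgef3 and Rasip1 are shown because both genes, chosen after their values were seen, lay at or beyond 2-fold under the DMSO mean in Sorbinil replicate 1 and were the least abundant members per length. Each is printed 5′ to 3′ on the strand of the gene, from 250 bases before to 50 after a RefSeq transcription start (GRCm38.p6, for which the files' own build, GRCm39, was not used). Capitals mark the motifs searched on both strands, which were the GC box GGGCGG, the ETS core CCGGAA, the cyclic AMP response half-site TGACG and the full element TGACGTCA, which contains the half-site.
Rapgef3, chr15:97767617-97767916, minus strand: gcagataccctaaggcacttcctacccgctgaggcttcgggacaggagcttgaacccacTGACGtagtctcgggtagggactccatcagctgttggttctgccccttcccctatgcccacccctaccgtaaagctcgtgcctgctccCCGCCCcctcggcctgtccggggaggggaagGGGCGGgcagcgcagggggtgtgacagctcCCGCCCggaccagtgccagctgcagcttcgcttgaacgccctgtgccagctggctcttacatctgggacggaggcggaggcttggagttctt
Rasip1, chr7:45627287-45627586, plus strand: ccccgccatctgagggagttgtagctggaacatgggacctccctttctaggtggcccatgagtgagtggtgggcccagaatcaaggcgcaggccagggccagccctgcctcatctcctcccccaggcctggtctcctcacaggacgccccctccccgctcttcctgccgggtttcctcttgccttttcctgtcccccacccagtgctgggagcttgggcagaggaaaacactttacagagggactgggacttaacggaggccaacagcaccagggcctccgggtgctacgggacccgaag
The Rapgef3 window held the GC box 3 times and the half-site once, and the Rasip1 window held none of the motifs. RefSeq gave 17 promoters for 9 of the 10 members. The GC box was in 10 of them, including promoters of Rap1b, Rapgef1, Rapgef4, Rapgef5, Rap1gap and Sipa1, and in 35.7% of all 32851 mouse promoters. The half-site was in 4, from Rap1b, Rap1gap and Rapgef3, and in 20.8% of all promoters, and the full element was in 1, from Rap1b, and in 1.79%. The ETS core was in 1, from Rapgef1, and in 14.9%. These letter matches are a description and show no binding.

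Levels of different genes were compared as CPM per kilobase of merged exons. Rapgef1 had the highest level at 15.9 ± 1.34 CPM per kb (SD, n = 5), followed by Rapgef5 at 14.1 ± 3.47 and Rap1gap at 12.8 ± 3.75. The GTPase Rap1b was at 6.22 ± 0.944 CPM per kb and Rap1a at 4.09 ± 0.573, with Rapgef2 between them at 5.09 ± 0.603. Sipa1 at 1.42 ± 0.336, Rapgef4 at 1.37 ± 0.408, Rasip1 at 1.01 ± 0.365 and Rapgef3 at 0.313 ± 0.0834 CPM per kb formed the lower end. The order therefore placed 2 exchange factors and a GAP above the GTPases they act on, and the cyclic AMP sensors near the bottom.

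Only 3 of the 9 neighbouring pairs kept their order in all 5 retinas, namely Rap1a over Sipa1, Rapgef4 over Rasip1, and Rasip1 over Rapgef3. Rapgef5 exceeded Rap1gap in 1 of 5 retinas, Sorbinil replicate 1, although its mean was higher, and Sipa1 exceeded Rapgef4 in 3 of 5. With the longest annotated transcript in place of merged exons, 6 of 9 pairs kept their order, and Rapgef5 at 28.1 CPM per kb came first, before Rap1gap at 19.6 and Rapgef1 at 18.7. Whether intronic reads were counted is not stated, and they would raise the level of a long gene.

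**Figure D3:**
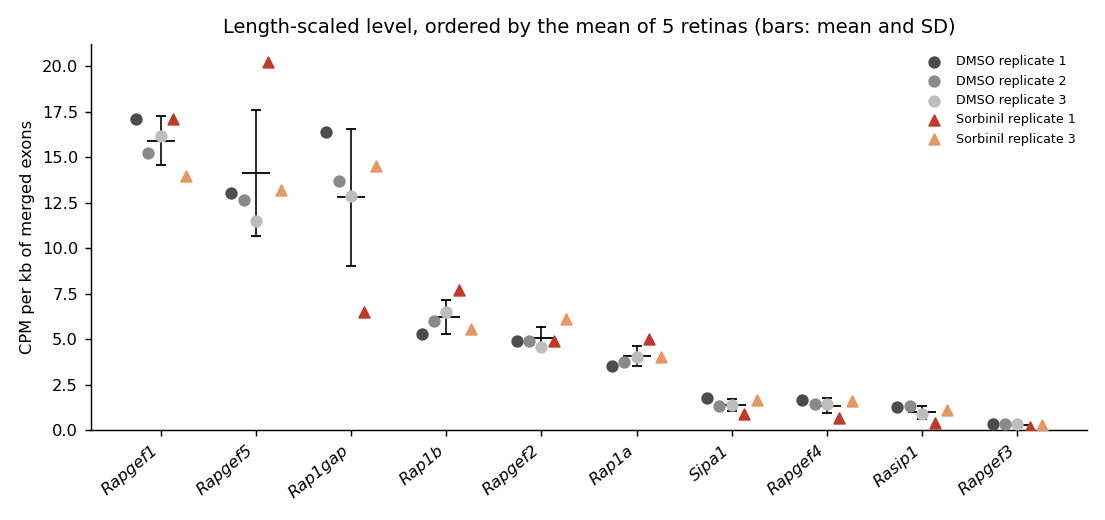
CPM per kilobase of merged exons of each member in each retina, ordered by the mean of 5 retinas, with the mean and SD over the 5 as bars. Rapgef1, Rapgef5 and Rap1gap overlap at the top, and in Sorbinil replicate 1 Rapgef5 is at 20.2 and Rap1gap at 6.52.

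Ratios inside a retina do not depend on library scaling, and 7 were computed, each tested with the exact two-sided permutation test. The summed level per kb of the 5 exchange factors over that of the 2 GAPs was 2.04, 2.30 and 2.39 in DMSO retinas and 5.80 and 2.18 in Sorbinil retinas. The high value of Sorbinil replicate 1 combined its high Rapgef5 with its low Rap1gap, and Sorbinil replicate 3 was inside the DMSO range (permutation p = 0.3, adjusted 0.42). Rap1b exceeded Rap1a per kb in all 5 retinas, by 1.499, 1.596 and 1.613 times in DMSO and 1.525 and 1.371 times in Sorbinil retinas (permutation p = 0.3, adjusted 0.42).

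The share of the summed exchange factor level that Rapgef1 held was 46.1%, 44.0% and 47.5% in DMSO retinas and 39.7% and 39.6% in Sorbinil retinas. On this share the 2 Sorbinil retinas were nearly equal, at 39.7% ± 0.0914 (SD, n = 2) against 45.9% ± 1.77 (SD, n = 3). Rapgef5 held 35.2%, 36.6% and 33.8% in DMSO and 47.0% and 37.5% in Sorbinil retinas, and Rapgef3 held 0.931%, 1.10% and 1.04% against 0.394% and 0.901%. For these 3 shares the groups did not overlap, with an exact permutation p of 0.1 and an adjusted p of 0.233, so none passed a correction that this number of retinas could not have met. Rapgef2 held 13.3%, 14.1% and 13.5% in DMSO retinas and 11.4% and 17.4% in Sorbinil replicates 1 and 3 (permutation p = 0.8). The share of Rapgef4 was the lowest of all retinas in Sorbinil replicate 1 and the highest in replicate 3. Within each retina the shares sum to a whole, so a larger share of 1 gene lowers the total share of the others. The 2 Sorbinil retinas thus had nearly equal Rapgef1 shares beside different shares of Rapgef5 and Rapgef2.

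By the root mean square difference of centred log2 CPM over the 5 retinas, the genes whose pattern was most like that of Rapgef5 among the 14991 other tested genes were Zpbp (0.0202), Chek2 (0.0292) and Sp1 (0.0407). Sp1, a transcription factor, was at 64.3, 62.2 and 58.2 CPM in DMSO and 103 and 70.2 CPM in Sorbinil retinas. With 5 retinas, of which 1 stands apart, many genes share such a pattern.

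A wider list of 66 genes around Rap1 was arranged by role, and 65 were tested, since Skap1 was at 4 counts or fewer in each retina. At the threshold of the study 4 of them were called lower and 0 higher, against 1.35% and 0.36% of all tested genes. The 4 were the endothelial cadherin Cdh5 (VE-cadherin), the adenylyl cyclase Adcy4, the leukocyte integrin subunit Itgal and the Rap1 effector Arap3. Each was at under 5 CPM in all retinas. The median log2 fold change of the 65 was -0.13, with 38 below 0, against a median of -0.01 and 51.0% below 0 for all tested genes.

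Cdh5, which holds endothelial cells together at junctions that Rap1 strengthens, was at 4.41, 4.64 and 1.84 CPM in DMSO and at 0.476 and 1.47 CPM in Sorbinil retinas. Both Sorbinil values lay below DMSO replicate 3, the lowest of its group. The log2 fold change was -1.88 (95% interval -3.47 to -0.30, unadjusted p = 0.0275, adjusted p = 0.758), and -1.30 without Sorbinil replicate 1 and -2.94 without replicate 3. Adcy4, which makes cyclic AMP, was at 0.962, 1.06 and 0.396 CPM in DMSO and at 0.190 and 0.236 CPM in Sorbinil retinas, a log2 fold change of -1.92 (unadjusted p = 0.0144) that was -1.78 without Sorbinil replicate 1 and -2.09 without replicate 3. For Adcy4 both Sorbinil retinas were low to a similar degree, at 1.82 and 1.55 below the DMSO mean on the log2 scale. These values rested on 10 and 16 counts. DMSO replicate 3, with 22 counts, was itself 0.86 below that mean.

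Itgal, a chain of the leukocyte integrin LFA-1, had log2 fold changes of -1.57 with all retinas, -0.95 without Sorbinil replicate 1 and -2.88 without replicate 3, and rested on 3 to 48 counts per retina. Arap3, which binds active Rap1, was at 2.16, 2.16 and 0.900 CPM in DMSO and 0.495 and 1.12 CPM in Sorbinil retinas, so that its groups overlapped. Its log2 fold change was -1.10 with all retinas, -0.64 without Sorbinil replicate 1 and -1.82 without replicate 3. Cdh5 and Adcy4 were the 2 that kept the call without Sorbinil replicate 1, where 1.43% of all tested genes were called.

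The role lists differed mainly in Sorbinil replicate 1. Its median difference from the DMSO mean was -1.07 on the log2 scale both for the 14 adenylyl cyclases and cyclic AMP phosphodiesterases and for the 10 junction and integrin genes, -0.85 for 7 other GAPs and -0.69 for 6 other exchange factors. The summed level of the cyclases and phosphodiesterases went the other way, at 1055 CPM in Sorbinil replicate 1 against 916 to 973 CPM in DMSO and 975 CPM in Sorbinil replicate 3. Its most abundant gene there, Adcy1, named after its values were seen, was at 704 CPM against 430 to 443 CPM in DMSO and 417 CPM in replicate 3. The junction and integrin genes summed to 526.5 CPM in Sorbinil replicate 1, below the 629.5 to 691 CPM of DMSO retinas, and to 691 CPM in replicate 3. The medians of the 18 effectors and partners (0.13), the 6 adaptors and scaffolds (-0.09) and the 4 genes of the Rap2 GTPases and a Rap1 chaperone (0.04) were nearer to 0. In Sorbinil replicate 3 the same medians ran from -0.08 to 0.19. All tested genes had medians of 0.02 and -0.01 in the same retinas.

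**Figure D4:**
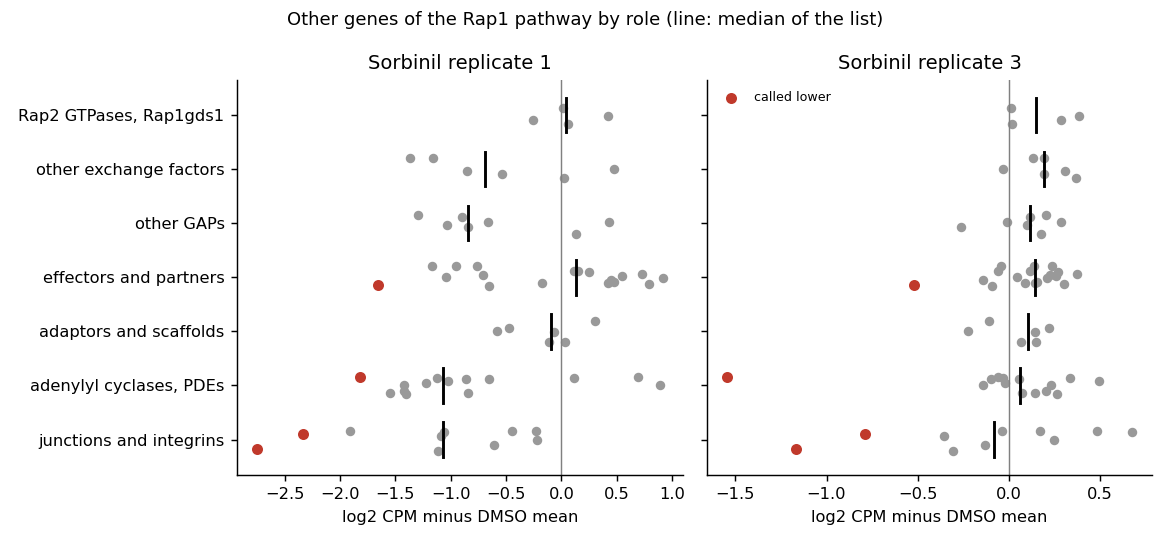
Difference from the DMSO mean (log2 CPM) of the 65 tested genes of the wider list in Sorbinil replicate 1 (left) and replicate 3 (right), each point a gene, black lines the list medians, red the 4 called genes. In Sorbinil replicate 1 the lists of cyclases and phosphodiesterases and of junctions and integrins have medians of -1.07, and in replicate 3 medians of 0.06 and -0.08, with separate scales for the x axes.

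The gene with the smallest p in each role list completed the named genes. Braf, the kinase through which Rap1 can reach the MAP kinase cascade, was at 105, 107 and 106 CPM in DMSO and at 176 and 138 CPM in Sorbinil retinas. All DMSO retinas were within a narrow range that both Sorbinil retinas exceeded, and the log2 fold change was 0.56 (95% interval 0.21 to 0.91, unadjusted p = 0.00788, adjusted p = 0.758). Without Sorbinil replicate 1 it was 0.39, and without replicate 3 it was 0.73. Rap2c, a GTPase of the related Rap2 group, was at 10.8, 12.3 and 11.3 CPM in DMSO and at 15.3 and 14.9 CPM in Sorbinil retinas, with a log2 fold change of 0.40 (unadjusted p = 0.0290) that was 0.39 without Sorbinil replicate 1 and 0.42 without replicate 3. Both genes stayed below the 2-fold limit.

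The adaptor Bcar1, which works with Crk at adhesions, had a log2 fold change of -0.39 (unadjusted p = 0.0419), of -0.21 without Sorbinil replicate 1 and of -0.58 without replicate 3. Rasa4, a GAP with activity on Ras and Rap1, was at -0.53 (unadjusted p = 0.0638), and at -0.26 and -0.86 in those fits. Rapgef6, the closest relative of Rapgef2, was at 0.24 (unadjusted p = 0.266), and at -0.03 and 0.47, so that its sign turned without Sorbinil replicate 1. Of the 65 genes, 8 had an unadjusted p under 0.05 (3 lower, 5 higher), against 5.01% of all tested genes, and 0 had an adjusted p under 0.05. The groups did not overlap for 19 of them, 9 lower and 10 higher, against 23.2% of all tested genes (10.5% lower and 12.8% higher).

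Markers of retinal cell types were read beside these values, since in a bulk sample fewer cells of a type and less RNA per cell cannot be told apart. Of 18 endothelial markers, 17 had log2 fold changes below 0 and 10 were called lower, against 51.0% and 1.35% of all tested genes. The list had medians of -2.12 in Sorbinil replicate 1 and -0.61 in replicate 3 against the DMSO mean. Their summed level was 903 to 1035 CPM in DMSO and 768 to 897 CPM in Sorbinil retinas. Slc2a1, Kdr, Podxl and Flt1, named after their values were seen, were the most abundant of the list and were not called. The sum thus mainly follows these genes and not the called ones. Rasip1 and Cdh5, both genes of endothelial cells, were also lowest in Sorbinil replicate 1. In Sorbinil replicate 3, Cdh5 was at -1.17 against the DMSO mean, while Rasip1 was at -0.05 and inside the DMSO range. The part of the endothelial list in the values of Rasip1 and Cdh5 was not tested. Cdh5 is itself a member of that list.

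Markers of inner retinal neurons and glia stood lower in Sorbinil replicate 1 as well. There the list median was -1.29 for amacrine and horizontal cells (12 genes), -1.18 for bipolar cells (10), -1.30 for ganglion cells (11), -1.44 for Müller glia and astrocytes (10) and -0.94 for microglia (12). In Sorbinil replicate 3 the same medians were 0.15, -0.03, -0.22, -0.03 and -0.15. Rapgef4 and Rap1gap, at -1.20 and -1.13 in Sorbinil replicate 1, and at 0.10 and 0.03 in replicate 3, lay within the range of these medians in both retinas. So did Rapgef3, at -1.07 and -0.18, and Rasip1, at -1.42 and -0.05. Sipa1, at -0.72 and 0.16, lay above the range in both, and the remaining members lay above it in Sorbinil replicate 1. The median of 12 rod markers was 0.57 in Sorbinil replicate 1 and -0.34 in replicate 3, and the summed rod level was 83650 to 99530 CPM in DMSO against 137900 and 70590 CPM. Rapgef5, Rap1a and Rap1b were likewise highest in Sorbinil replicate 1. In Sorbinil replicate 3, 10 of the 12 rod markers were below all DMSO retinas, as were 29.1% of all tested genes. There Rapgef5 and Rap1a, at 0.09 and 0.10, were above all DMSO retinas, and Rap1b, at -0.09, was inside the DMSO range. The part of the rods in the values of these members was not tested.

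In Sorbinil replicate 1 the summed levels of these neuronal and glial lists were also below all DMSO retinas. The ganglion cell list summed to 190 to 297 CPM in DMSO and to 94.3 and 234 CPM in Sorbinil replicates 1 and 3, the microglial list to 165 to 244 CPM against 110 and 181 CPM, the amacrine and horizontal list to 1001 to 1286 CPM against 424 and 1250 CPM, and the Müller list to 6655 to 8072 CPM against 2566 and 6960 CPM. The bipolar list summed to 1366 to 1533 CPM in DMSO and to 829 and 1588 CPM. No marker was at 0 in all retinas. The part that these lists have in the values of the members was not tested.

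**Figure D5:**
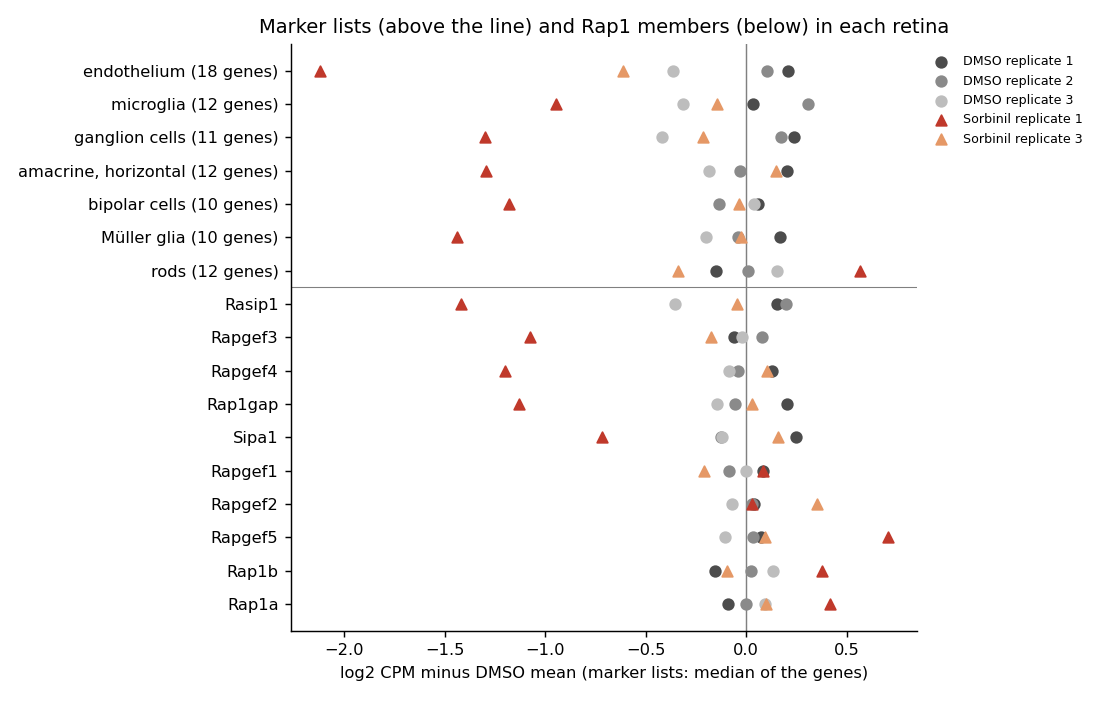
Difference from the DMSO mean (log2 CPM) in each retina for the medians of 7 marker lists (above the line) and for the 10 members (below), with DMSO retinas as grey circles and Sorbinil retinas as triangles. Sorbinil replicate 1 lies left of the other retinas for 6 of the lists and for Rasip1, Rapgef3, Rapgef4, Rap1gap and Sipa1. It lies right of them for rods, Rapgef5, Rap1b and Rap1a and, by a narrow margin over DMSO replicate 1, for Rapgef1.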

How the data were processed

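Total RNA of 5 whole injured retinas was sequenced, 3 after DMSO and 2 after Sorbinil. The authors trimmed and mapped the reads in CLC Genomics Workbench 22 (GRCm39) and deposited unnormalized total counts per gene symbol. The annotation release, the use of strand and the counting of intronic or multiply mapped reads are not given in the sources used here.

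The counts were filtered with filterByExpr (minimum count 10), scaled by TMM and tested over 14992 genes with edgeR 4.0.16 in R 4.3.3 (glmQLFit and glmQLFTest, Benjamini-Hochberg adjustment, treatment as the only term). Genes were called at an unadjusted p of at most 0.1 with at least a 2-fold change. Exact permutation tests used log2(CPM + 0.01). No retina repeated another (chi-square per df of at least 24.6 for all pairs). Libraries of 56096541 to 90288552 counts hold no molecular identifiers, so intervals rest on the spread between mice. Positions, exon lengths and coding sequences came from GENCODE vM39, which held 23524 of the 25655 symbols, and promoters from RefSeq (GRCm38.p6).

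The members and lists were chosen with earlier results of these data known. The genes named are all members, the called genes and the smallest p of each wider list, and 3 genes most like the member with the smallest p. Alternatives were DESeq2 1.42.0 size factors and Wald test, other scalings and filters, mitochondrial genes left out, the likelihood ratio test, a replicate block, a sex term, other thresholds, and leaving out each retina. The steps were tested on simulated data.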

Additional observations from a re-analysis of the deposited data

How the results depend on the processing

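Of 150 log2 fold changes of the members under alternatives, 141 kept their direction and their side of the threshold, 5 changed sign and 4 passed the threshold, and these 9 came from leaving out 1 Sorbinil retina. Over the fits that left out each retina in turn, Rap1b ran from -0.0875 to 0.3746, Rapgef1 from -0.1989 to 0.0844, Rapgef4 from -1.20 to 0.11, Rap1gap from -1.1357 to 0.0314 and Sipa1 from -0.73 to 0.16. The other members kept their sign, with Rap1a from 0.11 to 0.42, Rapgef2 from 0.03 to 0.36, Rapgef3 from -1.08 to -0.17, Rapgef5 from 0.10 to 0.71 and Rasip1 from -1.45 to -0.06. The number of members called, 0 in the fit of all retinas, ran from 0 to 4 in those fits, with 4 without Sorbinil replicate 3, and was 1 (Rapgef5) at an unadjusted p of at most 0.1 with no fold limit. The number of called genes in the wider list, 4, ran from 2 to 21, with 21 without Sorbinil replicate 3 and 2 (Cdh5 and Adcy4) without DMSO replicate 1, DMSO replicate 2 or Sorbinil replicate 1. It was 2 with the sex term, 2 at a p of at most 0.05, 13 with no fold limit, and 0 at an adjusted p under 0.05. Of all genes, 257 were called, 408 with no filter on low counts, 148 with at least 10 counts in every retina, 168 at a p of at most 0.05, 1696 with no fold limit, 0 at an adjusted p under 0.05, and 164 to 2903 when each retina was left out, with 2903 without Sorbinil replicate 3. No label says that a replicate number marks a shared animal, litter or day. Deviations of same-numbered retinas correlated at -0.24 and -0.13, but with 2 Sorbinil retinas their deviations are exact opposites, so these values do not show whether the numbers pair the retinas. Same-numbered retinas shared their sex by Y-linked genes (male for number 1 and female for number 3). With the replicate block, 0 members, 2 genes of the wider list and 203 of all genes were called. Scaling by library size alone moved the median of all genes to -0.11. The order of levels per kb held in all retinas for 3 of 9 neighbouring pairs with merged exons and for 6 with the longest transcript.

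With 2 Sorbinil retinas, 1 of which stands apart, the intervals reach past a 2-fold decrease for Rapgef3, Rapgef4, Rap1gap and Rasip1, so a decrease of that size is not excluded for them. A fit with a lone Sorbinil retina borrows its spread from the DMSO retinas. Rapgef3 and Rasip1 rest on 106 to 586 counts per retina, against 3601 or more for Rap1b, and other annotated genes overlap their exons. With the sex term 0 members were called.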
